A study of Mus musculus with 4 samples.

Results

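Chemokines are small secreted or membrane-bound proteins that attract cells carrying matching G-protein-coupled receptors. This account covers 10 chemokine transcripts of primary cortical cultures, Ccl2, Ccl11, Ccl20, Cxcl1, Cxcl5, Cxcl10, Cxcl12, Cxcl14, Cxcl16 and Cx3cl1, taken by gene symbol from a table of 32681 genes. The list was drawn up with earlier results of these libraries in view, including their read support and the contrast described here. The values below are therefore a description of these 10 genes, and the model p-values beside them are not independent evidence.

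The cultures were neurons prepared from neocortex of wild-type CD-1 mice at embryonic day 13, grown in Neurobasal medium with B27 supplement. Of 4 libraries, 2 came from cultures that received a control shRNA (a short hairpin RNA, which triggers RNA interference) by transfection, and 2 from cultures given DcpS shRNA instead. The labels of both DcpS shRNA libraries name the same hairpin, shDcPS-2, and no library with another hairpin against Dcps was included. DcpS is a decapping scavenger that cleaves the cap structure remaining after 3′ to 5′ mRNA decay. The labels state neither the time after transfection nor whether the cultures shared a litter, so the spread behind the p-values may be technical. Reads counted to genes ran from 17754768 to 21793685 per library. Dcps itself was at 499.8 and 506.6 normalised read counts in the controls, against 114.5 and 119.6 under DcpS shRNA, which is 23.3% of the control mean. Neuronal markers (Tubb3, Map2, Dcx and 7 others) were abundant, with 96409 to 102216 summed normalised read counts in every library.

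In the brain, Cxcl12 is made by meningeal cells and steers migrating neurons and Cajal-Retzius cells through its receptor Cxcr4. Cx3cl1 is a neuronal, membrane-tethered ligand read by Cx3cr1 on microglia. Ccl2, Ccl20, Cxcl1, Cxcl5 and Cxcl10 belong to the inducible group, whose transcription is switched on by interleukin-1, tumour necrosis factor or interferon in glia, vascular cells and fibroblasts.

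With DcpS shRNA the inducible chemokines on the list were lower, Cxcl14 was higher and Cx3cl1 stayed within the range of the controls. Inducible chemokines outside the list, given below, did not all go that way. All 10 passed the filter on low counts. Of the 10, 7 were lower and 1 was higher at an adjusted p under 0.05 in limma, and 2, Cxcl16 and Cx3cl1, were not called. Over all 18110 genes tested, 5.79% were called, 3.65% lower and 2.14% higher. The median log2 fold change was −0.91 over the 10 and 0.00074 over all genes tested. The libraries of the 2 groups did not overlap for 9 of the 10, as for 48.4% of all genes tested. Because the list was chosen on this contrast, these counts describe it and are not a test of it.

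**Figure D1:**
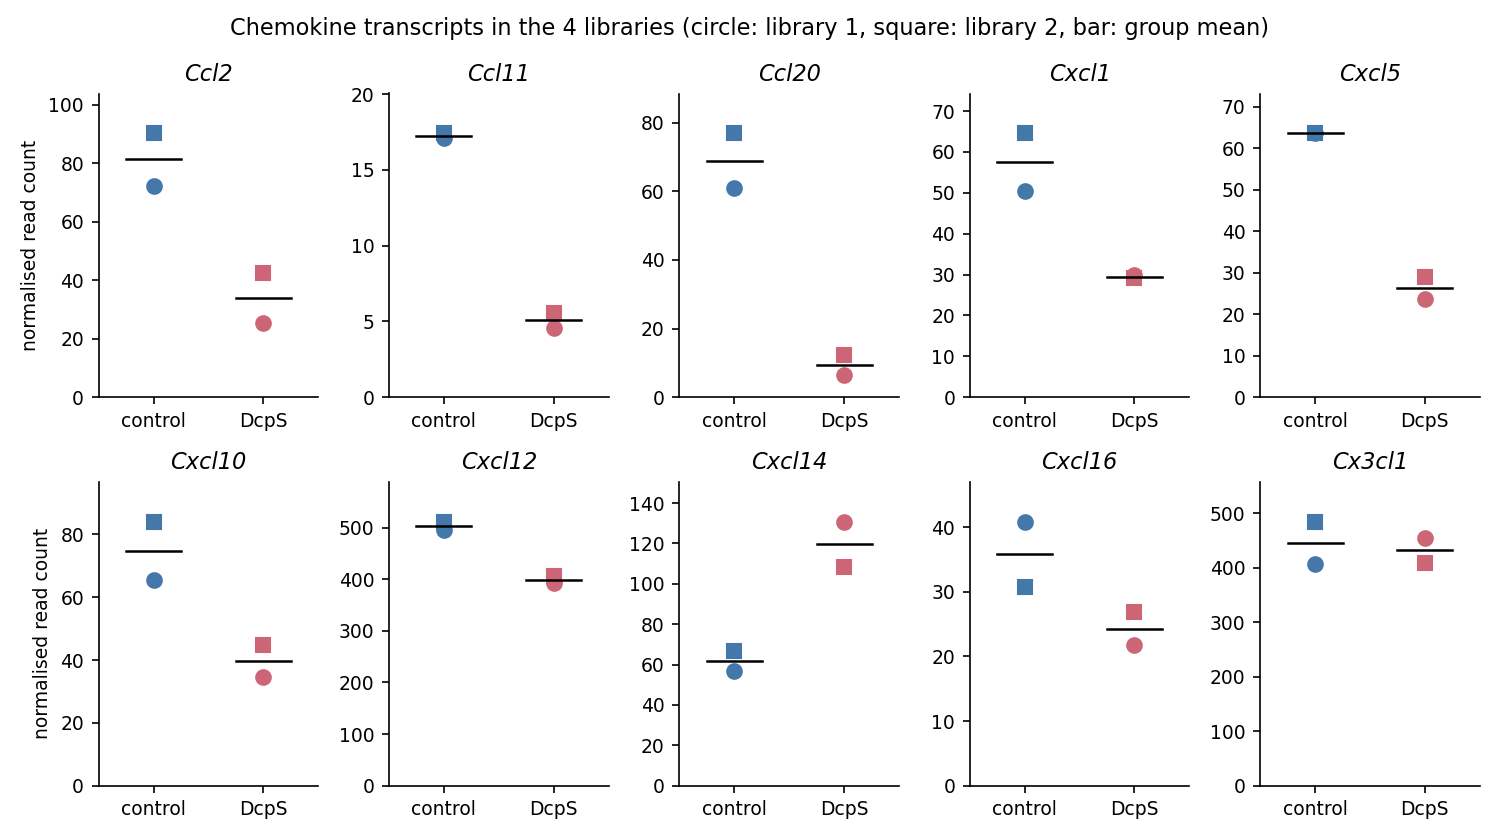
Normalised read count (vertical axes, starting at 0, scale differs by gene) of each chemokine in the 2 control and 2 DcpS shRNA libraries. Circles are library 1, squares library 2 and bars the group mean of 2 libraries. Ccl20 falls from 60.8 and 76.9 to 6.36 and 12.3, Cxcl14 goes the other way, and the groups overlap only for Cx3cl1.

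Read support was uneven. The 10 transcripts drew 5088 reads in all, and Cxcl12 (1816 reads) with Cx3cl1 (1768 reads) held 70.4% of them. In 7 of the 10, at least 1 library had fewer than 50 reads, and the lowest count was 5 reads of Ccl11 in each DcpS shRNA library. Counting error is therefore wide for that gene: the exact 95% Poisson interval of 5 reads is 1.62 to 11.7 reads, and that of the 18 reads in control 1 is 10.7 to 28.4. These intervals cover counting error only.

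Among the CC chemokines, whose leading cysteines are adjacent, Ccl20 differed most. Ccl20 (chromosome 1, 83116766 to 83119167, plus strand, GRCm38, GENCODE M21) encodes the ligand of Ccr6, which draws in T helper 17 and dendritic cells. Its reads numbered 64 and 75 in the controls, against 7 and 11 under DcpS shRNA. Normalised, it was at 60.8 and 76.9 in the controls, against 6.36 and 12.3 under DcpS shRNA, so that even the higher DcpS shRNA library lay far below the lower control. The mean was 68.9 ± 11.4 in the controls and 9.33 ± 4.19 with DcpS shRNA (SD, n = 2 each), 7.38-fold lower. The log2 fold change on the log2(value + 1) scale was −2.81 (SE 0.32; limma, Benjamini-Hochberg adjusted p 4.78e-05).

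Ccl2 (chromosome 11, 82035571 to 82037453, plus strand) encodes the monocyte attractant that acts through Ccr2. It had 76 and 88 reads in the controls, against 28 and 38 under DcpS shRNA. The normalised read counts were 72.2 and 90.2 against 25.4 and 42.5, which left 41.8% of the control mean. The DcpS shRNA libraries differed from each other by 0.72 on the log2 scale, the second widest gap within a group after the 0.85 of Ccl20 among the 10. The difference between groups was wider than that gap (log2 fold change −1.27, SE 0.24; limma, Benjamini-Hochberg adjusted p 0.00459).

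Ccl11 (eotaxin, an eosinophil attractant that binds Ccr3; chromosome 11, 82057823 to 82062955, plus strand) starts 20370 bases beyond the end of Ccl2. It had 18 and 17 reads in the controls, against 5 and 5 under DcpS shRNA. Normalised, the controls were at 17.1 and 17.4 and the DcpS shRNA libraries at 4.54 and 5.59, so the groups were apart and each was tight. The log2 fold change was −1.60 with a broad 95% interval, −2.53 to −0.66 (limma, Benjamini-Hochberg adjusted p 0.0437).

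Of the CXC chemokines, Cxcl1 and Cxcl5 are the neutrophil attractants of the list and share the receptor Cxcr2. Their genes lie in the same chemokine cluster of chromosome 5, 129617 bases apart. Cxcl5 (90759360 to 90761624, plus strand) had 67 and 62 reads in the controls and 26 in each DcpS shRNA library. Its normalised read counts were 63.7 and 63.6 in the controls, against 23.6 and 29.1 under DcpS shRNA. The controls were nearly equal and the DcpS shRNA mean was 41.4% of theirs (log2 fold change −1.25, SE 0.23; limma, Benjamini-Hochberg adjusted p 0.00317).

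Cxcl1 (90891241 to 90893115, plus strand) had 53 and 63 reads in the controls, against 33 and 26 under DcpS shRNA. Normalised, it was at 50.4 and 64.6 in the controls, against 30.0 and 29.1 under DcpS shRNA. The DcpS shRNA libraries were close together, at 51.4% of the control mean, and most of the spread lay between the controls (log2 fold change −0.93, SE 0.23; limma, Benjamini-Hochberg adjusted p 0.0254).

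Cxcl10, an interferon-inducible attractant of Cxcr3-bearing T cells, lies on chromosome 5 as well (92346638 to 92348889, minus strand). It had 69 and 82 reads in the controls, against 38 and 40 under DcpS shRNA. Normalised, it was at 65.6 and 84.1 against 34.5 and 44.7, 52.9% of the control mean. The groups were apart although each spread by about the same amount, 0.35 and 0.36 on the log2 scale (log2 fold change −0.90, SE 0.22; limma, Benjamini-Hochberg adjusted p 0.0210). In the annotation 5.91% of its exonic bases overlap exons of Art3 on the opposite strand, and reads of the 2 genes cannot be told apart there where strand was not used.

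The promoters of 3 inducible chemokines that were lower, and that of Cxcl14, which was higher, are shown because these members moved apart and because the inducible ones are known targets of NF-κB and interferon signalling. RefSeq promoter windows of 300 bases (250 before the start and 50 after it, GRCm38.p6, 5′ to 3′ on the gene's strand) matched 6 of the 10 genes. Windows for Ccl2, Ccl11, Cxcl5 and Cxcl16 were not used here. Capitals mark matches, on either strand, to the κB consensus or to the interferon-response core GAAANNGAAA. The windows are chr1:83116516-83116815 (plus strand) for Ccl20, chr5:90890995-90891294 (plus) for Cxcl1, chr5:92348840-92349139 (minus) for Cxcl10 and chr13:56296502-56296801 (minus) for Cxcl14.
Ccl20: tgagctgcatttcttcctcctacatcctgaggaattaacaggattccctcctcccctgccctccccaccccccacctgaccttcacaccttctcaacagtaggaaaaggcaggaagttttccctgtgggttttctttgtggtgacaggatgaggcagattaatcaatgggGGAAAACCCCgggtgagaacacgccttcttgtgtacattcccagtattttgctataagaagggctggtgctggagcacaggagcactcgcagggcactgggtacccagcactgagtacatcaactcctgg
Cxcl1: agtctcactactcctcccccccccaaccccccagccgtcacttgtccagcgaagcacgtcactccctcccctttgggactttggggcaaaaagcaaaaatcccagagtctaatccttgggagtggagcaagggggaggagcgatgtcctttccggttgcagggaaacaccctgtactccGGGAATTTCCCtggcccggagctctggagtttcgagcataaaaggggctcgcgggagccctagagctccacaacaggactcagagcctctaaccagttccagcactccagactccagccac
Cxcl10: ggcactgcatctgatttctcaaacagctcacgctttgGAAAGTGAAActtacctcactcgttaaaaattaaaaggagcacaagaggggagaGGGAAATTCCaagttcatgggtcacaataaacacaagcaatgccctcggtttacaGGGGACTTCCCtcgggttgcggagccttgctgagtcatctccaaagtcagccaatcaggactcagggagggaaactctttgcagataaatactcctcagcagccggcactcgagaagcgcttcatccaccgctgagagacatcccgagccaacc
Cxcl14: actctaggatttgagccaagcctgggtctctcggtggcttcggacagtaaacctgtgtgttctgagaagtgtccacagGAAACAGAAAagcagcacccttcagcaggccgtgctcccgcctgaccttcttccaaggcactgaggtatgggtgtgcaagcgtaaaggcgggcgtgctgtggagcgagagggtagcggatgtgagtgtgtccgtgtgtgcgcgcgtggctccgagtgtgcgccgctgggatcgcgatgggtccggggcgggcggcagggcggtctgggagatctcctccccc

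A κB match was present in 3 of the 6 windows, those of Ccl20, Cxcl1 and Cxcl10, and in 8.46% of all 32851 windows. In Ccl20 the match starts 80 bases before the gene's start, on the opposite strand. In Cxcl1 the matches on the 2 strands overlap and begin 71 and 70 bases before the start. Cxcl10 holds a match 159 bases before the start, and overlapping matches 104 and 103 bases before it. The interferon-response core was in the windows of Cxcl10, 213 bases before the start, and of Cxcl14, 172 bases before it, and in 3.44% of all windows. The windows of Cxcl12 and Cx3cl1 held neither. A match describes the letters of a window and was not tested as a binding site. Its link to the differences between the groups was not tested either.

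Cxcl12, the homeostatic ligand of Cxcr4 and Ackr3 (chromosome 6, 117168535 to 117181367, plus strand), was the best supported of the 10 with 522 and 499 reads in the controls, against 432 and 363 under DcpS shRNA. Its normalised read counts were 496.0 and 511.7 in the controls, against 392.5 and 405.7 under DcpS shRNA. Libraries of a group lay within 0.05 of each other on the log2 scale, and the groups were apart. The DcpS shRNA mean was 79.2% of the control mean, the smallest difference of those called (log2 fold change −0.34, SE 0.08; limma, Benjamini-Hochberg adjusted p 0.0224).

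Cxcl14, a CXC chemokine made by epithelia and by some neurons (chromosome 13, 56288643 to 56296551, minus strand), was the only one of the 10 that was higher. It had 60 and 65 reads in the controls, against 144 and 97 under DcpS shRNA. The normalised read counts were 57.0 and 66.7 in the controls, against 130.8 and 108.4 under DcpS shRNA. Both DcpS shRNA libraries exceeded both controls and the mean was 1.93-fold higher (log2 fold change 0.94, SE 0.17; limma, Benjamini-Hochberg adjusted p 0.00337).

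The membrane-tethered members, Cxcl16 and Cx3cl1, were not called. Cxcl16, the ligand of Cxcr6 and a scavenger receptor (chromosome 11, 70453983 to 70459984, minus strand), had 43 and 30 reads in the controls and 24 in each DcpS shRNA library. Normalised, it was at 40.9 and 30.8 in the controls, against 21.8 and 26.8 under DcpS shRNA. The groups did not overlap, but the gap between the controls was 0.40 on the log2 scale and the 95% interval of the log2 fold change ran from −1.11 to 0.05 (limma, Benjamini-Hochberg adjusted p 0.317). Exons of Zmynd15 on the opposite strand overlap 18.3% of its exonic bases.

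Cx3cl1 (chromosome 8, 94772009 to 94782427, plus strand) had 428 and 473 reads in the controls, against 501 and 366 under DcpS shRNA. Its normalised read counts were 406.7 and 485.1 in the controls, against 455.2 and 409.0 under DcpS shRNA. Both DcpS shRNA values lay between those of the controls. The log2 fold change was −0.04, with a 95% interval of −0.25 to 0.16 (limma, Benjamini-Hochberg adjusted p 0.878). A change as large as that of Cxcl14 or of the listed inducible chemokines lies outside the interval.

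**Figure D2:**
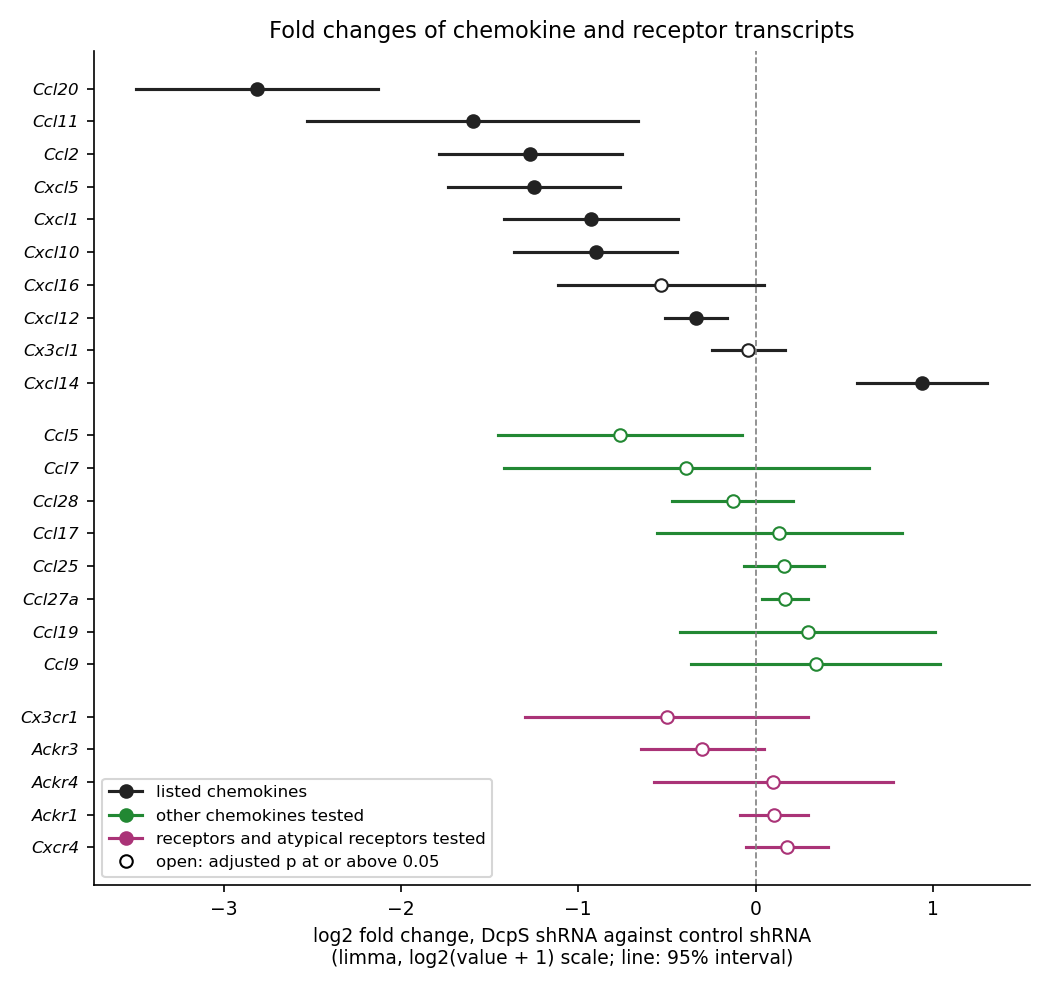
Log2 fold change (horizontal axis, DcpS shRNA against control shRNA, log2(value + 1) scale) of the 10 chemokines, of the 8 other chemokines tested and of 5 receptors and atypical receptors, with 95% intervals from limma on 2 libraries per group. Filled points have an adjusted p under 0.05. Filled points occur among the 10 listed chemokines, from −2.81 for Ccl20 to 0.94 for Cxcl14, while the other chemokines and the receptors are open. The 10 were listed with this contrast in view, so that split describes the list and is not a test.

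Levels can be compared between genes only per length, here as normalised reads per kilobase of annotated exon. In the controls Cx3cl1 led with 113 ± 14.1, followed by Ccl2 (71.4 ± 11.2), Cxcl12 (61.6 ± 1.36) and Ccl20 (48.5 ± 8.01) (SD, n = 2 each). Cxcl5 (34.2), Cxcl14 (33.8), Cxcl10 (33.2) and Cxcl1 (30.7) had overlapping libraries and cannot be ordered. Ccl11, at 15.8 and 16.1, and Cxcl16, at 10.2 and 13.5, were lowest. The exon length of Cxcl12 counts the long 3′ ends of all its isoforms, which lowers its value per kilobase where shorter forms are used. For Cxcl1 (1875 bases) and Cxcl10 (2252 bases) the exon length covers the whole gene as 1 block. Their values are lowered in the same way where introns are spliced out, so their places in the order are uncertain.

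With DcpS shRNA the order per kilobase was different. Cx3cl1 still led with 110 ± 8.31, and Cxcl14 moved up to the second place with 65.5 ± 8.68 (SD, n = 2 each). Cxcl12 followed with 48.8 ± 1.14. Ccl20, the fourth in the controls, was among the lowest with 6.56 ± 2.95, and its libraries, at 4.48 and 8.65, overlapped those of Cxcl16, at 7.22 and 8.88, and the higher Ccl11 library, at 5.16. Ccl2, at 29.8 ± 10.6, stood above Cxcl10 (17.6), Cxcl1 (15.7) and Cxcl5 (14.1), with the limit on exon length given above for Cxcl10 and Cxcl1.

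**Figure D3:**
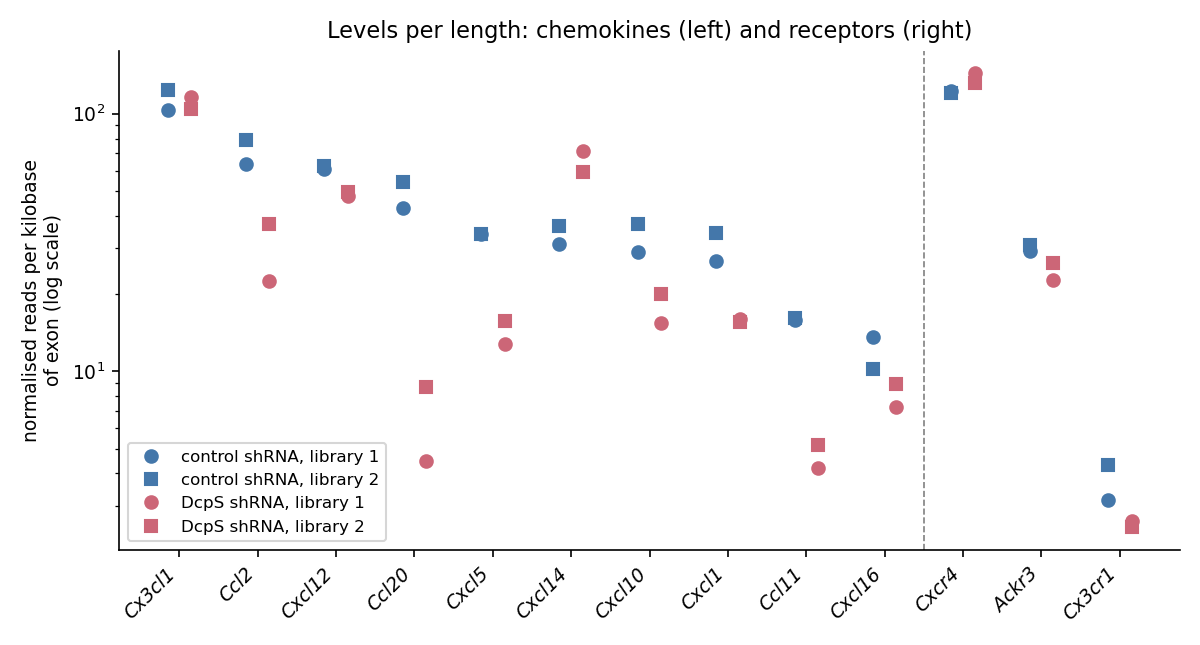
Normalised reads per kilobase of annotated exon (log axis) of the 10 chemokines, ordered by control mean, and of the receptors Cxcr4, Ackr3 and Cx3cr1, in each of the 4 libraries. With DcpS shRNA Ccl20 lies at 4.48 and 8.65, beside Cxcl16 at 7.22 and 8.88, and Cxcl14 is the second highest chemokine at 71.6 and 59.3.

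Most receptors for these ligands were hardly seen. Of 14 signalling chemokine receptors in the table, 12 had at most 9 reads in every library, among them Ccr2, Ccr3, Ccr6, Cxcr2, Cxcr3 and Cxcr6, the receptors of Ccl2, Ccl11, Ccl20, Cxcl1 and Cxcl5, Cxcl10 and Cxcl16. A count of 0 in 1 library allows up to 3 reads, or 0.138 to 0.169 CPM (reads scaled to a common library total). Cxcr4, the receptor of Cxcl12, was the best supported, at 221.4 and 216.4 normalised read counts in the controls, against 258.9 and 236.9 under DcpS shRNA. It was not called (log2 fold change 0.18, 95% interval −0.05 to 0.41; limma, Benjamini-Hochberg adjusted p 0.416). Per kilobase, Cxcr4 stood at 121 ± 1.96 in the controls, above its ligand.

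Cx3cr1, the microglial receptor of Cx3cl1, had 10 to 19 reads per library, at 14.3 and 19.5 normalised read counts in the controls, against 11.8 and 11.2 under DcpS shRNA (limma, Benjamini-Hochberg adjusted p 0.528). Ackr3, the scavenging receptor of Cxcl12, was at 97.9 and 103.6 in the controls, against 75.4 and 88.3 under DcpS shRNA, without passing the test (log2 fold change −0.30, 95% interval −0.65 to 0.05; limma, Benjamini-Hochberg adjusted p 0.355). Ackr1, which binds many inflammatory chemokines, had 377 to 434 reads and a log2 fold change of 0.10, but 25.7% of its exonic bases also belong to Cadm3 on the same strand, so its reads are uncertain. Of 8 atypical receptors and chemokine-processing proteases, 6 were tested and 1 was lower. That was Adam10, a protease that sheds Cx3cl1 and Cxcl16 (log2 fold change −0.19, SE 0.05; limma, Benjamini-Hochberg adjusted p 0.0451), while Adam17, another sheddase, had a log2 fold change of −0.02.

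None of the chemokines outside the 10 was called (limma, 0 of 8 tested, 2 at an unadjusted p under 0.05; edgeR, 0). As the 10 were listed with this contrast in view, this does not set them apart. Of 28 such genes sought by symbol, 20 were in the table, and 12 of these had at most 14 reads in every library. These 12 were not tested. Among them Cxcl11 had 8 and 11 reads in the controls against 1 and 3 under DcpS shRNA, and Ccl4 had 6 and 6 against 8 and 13. Ccl3 had 10 and 8 against 7 and 10, and Cxcl2 had 1 and 14 against 4 and 4. Ccl7, which was tested, had 9 and 29 reads in the controls against 11 and 13 under DcpS shRNA. Its groups overlapped (log2 fold change −0.39; limma, Benjamini-Hochberg adjusted p 0.735). The best supported were Ccl27a (1548 to 1898 reads), Ccl19 (184 to 307 reads), Ccl25 (229 to 291 reads), Ccl28 (96 to 120 reads) and Ccl5 (14 to 29 reads). Ccl5, an inducible T-cell attractant, was at 21.9 and 29.7 normalised read counts in the controls, against 13.6 and 15.6 under DcpS shRNA (log2 fold change −0.76, SE 0.33; limma, Benjamini-Hochberg adjusted p 0.215). Ccl27a, at 1471 and 1636 against 1724 and 1757, had a log2 fold change of 0.17 (adjusted p 0.140 in limma). Ccl27a and Ccl19 have near-identical gene copies in the mouse, so their counts are uncertain. The median log2 fold change of the 8 tested was 0.15.

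Among 38 cytokines, receptors and NF-κB or interferon pathway genes that act upstream of inducible chemokines, 31 were tested, 3 were lower and 0 were higher, with a median log2 fold change of −0.10. That share of lower genes stands beside 3.65% of all genes tested. The 3 were the interleukin-1 receptor Il1r1, the shared interleukin-6 receptor subunit Il6st and the transcription factor Stat3. Il1r1 had 58 and 48 reads in the controls, against 22 and 25 under DcpS shRNA (log2 fold change −1.11, SE 0.25; limma, Benjamini-Hochberg adjusted p 0.0150). Il6st was at 857.1 and 869.6 against 667.8 and 600.1 (log2 fold change −0.45, SE 0.07; limma, Benjamini-Hochberg adjusted p 0.00115). Stat3 was at 1010 and 1043 against 824.1 and 860.5 (log2 fold change −0.29, SE 0.06; limma, Benjamini-Hochberg adjusted p 0.0126).

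The other 28 tested did not pass, and over the whole list 22 log2 fold changes were below 0 and 9 above. The nearest to the threshold was Nfkb1, a subunit of NF-κB, at 453.2 and 409.2 against 336.2 and 355.4 (limma, Benjamini-Hochberg adjusted p 0.0522; edgeR 0.0437). After it came the interferon-pathway factors Irf9 (log2 fold change −0.37, adjusted p 0.0611 in limma) and Irf7 (−1.09, 0.072), and Tnfaip3, an NF-κB target that restrains the pathway (−0.60, 0.0991). Values above 0 belonged among others to Irf1 (0.35), Nfkbia, the inhibitor of NF-κB (0.11), Stat2 (0.10) and the NF-κB subunit Rela (0.08), with adjusted p from 0.369 to 0.689 in limma. The inducing ligands themselves were scarce: Il1b had 0 to 3 reads, Il6 0 to 6, Tnf 5 to 9 and Ifnb1 0 to 1 per library. Of 11 proteins that bind AU-rich or stem-loop elements in such mRNAs, 0 of 11 tested were called by limma (1 at an unadjusted p under 0.05), and 0 by edgeR. The one at an unadjusted p under 0.05 was Zc3h12a, an RNase that degrades cytokine mRNAs (log2 fold change −0.56; limma, Benjamini-Hochberg adjusted p 0.239).

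AU-rich words, which speed decay of many inflammatory mRNAs, were counted in the longest annotated 3′ UTR of each gene. The pentamer ATTTA was present in 9 of the 10, all but Cxcl14, and in 70.8% of 13687 tested genes scanned. Ccl20 had 9 copies and Cxcl1 7, in 3′ UTRs of 1050 and 592 bases. The overlapping nonamer ATTTATTTA was found in Cxcl1 alone, in 2 copies, and in 6.77% of the genes scanned. The Cxcl1 site is shown because it holds both copies, with ATTTA in capitals, at bases 79 to 108 of the 3′ UTR.
Cxcl1: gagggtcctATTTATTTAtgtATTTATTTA

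Markers of other cell types moved with the same contrast, and their part in the chemokine differences was not tested. In bulk RNA, fewer cells of a type and less RNA per cell cannot be told apart. Summed over 12 markers of meningeal fibroblasts, a known source of Cxcl12, normalised read counts were 16674 and 18131 in the controls, against 10743 and 10324 under DcpS shRNA, and 8 of 12 tested were lower. Endothelial and mural markers were at 865.6 and 912.7 against 553.3 and 516.3 (3 of 9 tested lower, 0 higher), although the endothelial marker Cldn5 had at most 2 reads. The mural gene Pdgfrb carried most of that sum, at 506.4 and 534.3 against 328.9 and 304.0. Of the 9, 8 log2 fold changes were below 0. Kdr, an endothelial marker, was among the 3 lower, with 89 and 106 reads in the controls against 64 and 50 under DcpS shRNA (log2 fold change −0.74; limma, Benjamini-Hochberg adjusted p 0.0253). The endothelial marker Pecam1 was above 0, with 6 and 12 reads in the controls against 22 and 13 (adjusted p 0.263 in limma). Choroid plexus markers were at 5528 and 5718 against 4196 and 4511 (1 of 4 tested lower). Ttr carried most of that sum, at 5022 and 5195 against 3748 and 4105, and was the 1 called. All 4 log2 fold changes were below 0, with Clic6 at 97.4% of its control mean.

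Astrocyte markers were mixed. They summed to 9790 and 9905 in the controls, against 9561 and 9799 under DcpS shRNA, with 3 of 8 tested lower, 1 higher and 4 not called. Their median log2 fold change was −0.32 and 6 of the 8 were below 0. The sum is carried by Aldoc and the glutamate transporter Slc1a3. The lower ones were Gfap, the filament gene raised in reactive astrocytes (log2 fold change −0.91), the water channel Aqp4 (−1.13) and the gap-junction gene Gja1 (−0.67), and the glycolytic gene Aldoc was higher (0.21). Microglia and macrophage markers summed to 572.0 and 574.3 against 587.8 and 619.1, with 1 of 14 tested higher and 0 lower. The 1 higher was Laptm5, with 50 and 60 reads in the controls against 107 and 75 under DcpS shRNA (log2 fold change 0.73; limma, Benjamini-Hochberg adjusted p 0.0344). Support was uneven within the list. P2ry12 had 0 to 3 reads per library and Trem2 0 to 2, while Tmem119 had 25 to 47, Csf1r 29 to 40 and C1qa 21 to 24. Relative to the control mean, Ccl20 stood at 9.24% and 17.9% in the DcpS shRNA libraries, Ccl11 at 26.3% and 32.4%, and the fibroblast sum at 61.7% and 59.3%. The mean of Cxcl1 (51.4%) and that of Cxcl10 (52.9%) were nearer to that sum, and Cxcl12 (79.2%) was above it. The fibroblast sum is carried by Fn1 and the collagen genes Col1a1, Col1a2 and Col3a1, at 54.6% to 66.6% of their control means. Single fibroblast markers ranged from 47.7% for Postn to 143% for Crabp2, with Lum at 77.2% and Ogn at 99.4%. Cxcl12 lay within that range. Single markers reached the range of the listed inducible chemokines. The mural marker Acta2 was at 25.5% of its control mean (limma, Benjamini-Hochberg adjusted p 7.32e-05). Aqp4 was at 45.8% and the fibroblast gene Postn at 47.7%, both lower as well. Rgs5, a pericyte marker, was at 38.3% without passing the test (adjusted p 0.0549 in limma).

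**Figure D4:**
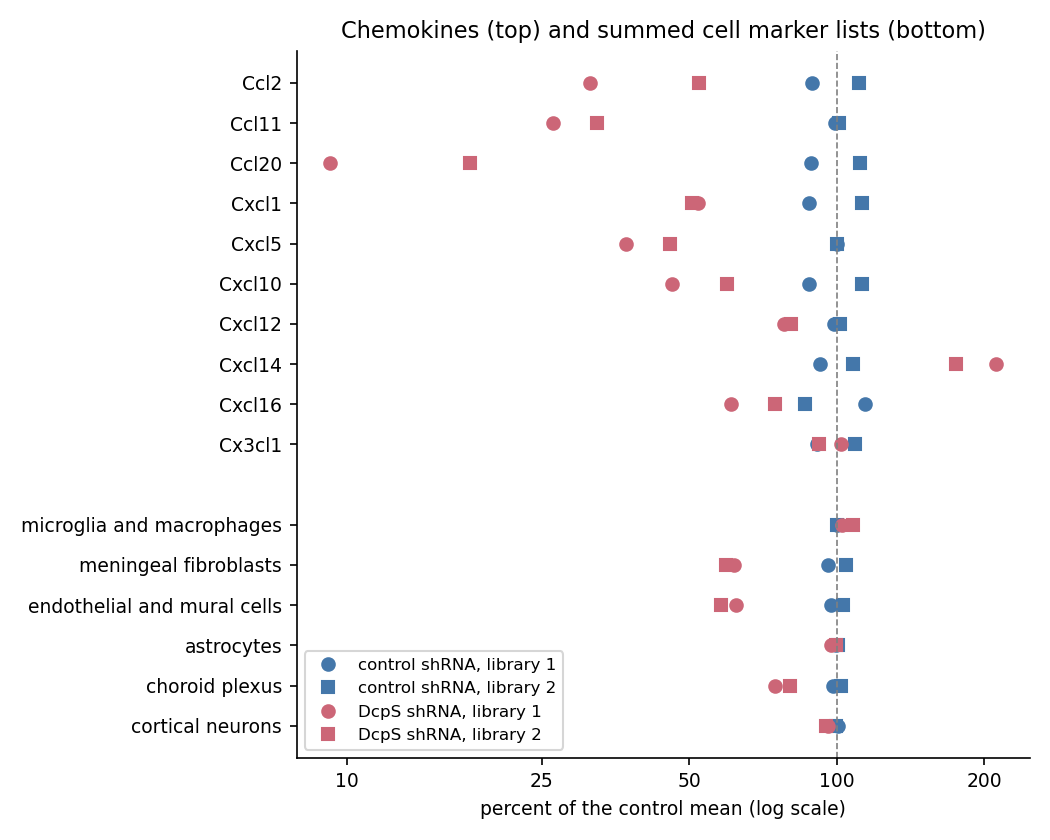
Percent of the control mean (log axis) of each chemokine and of the summed normalised read counts of 6 cell marker lists, in each library. Collagen genes and Fn1 carry the fibroblast sum, and Pdgfrb carries most of the endothelial and mural sum. Ttr carries most of the choroid plexus sum. In the DcpS shRNA libraries the fibroblast sum lies at 61.7% and 59.3% and the endothelial and mural sum at 62.2% and 58.1%, the microglial sum at 103% and 108%, Ccl20 at 9.24% and 17.9%, and Cxcl12, above the fibroblast sum, with a mean of 79.2%.

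The calls differed in how much they rested on 1 library. Ccl2, Ccl20, Cxcl5 and Cxcl14 were called in each of the 4 fits that left out a library. Ccl11 was called in none of them (limma, Benjamini-Hochberg adjusted p 0.0525 to 0.226), and Cxcl12 only without DcpS shRNA 2. Without control 2 the calls also ended for Cxcl1 (limma, Benjamini-Hochberg adjusted p 0.252) and Cxcl10 (0.198), and without DcpS shRNA 1 for Cxcl10 (0.0689). The log2 fold change of Cx3cl1 turned to 0.09 without control 2 and to 0.04 without DcpS shRNA 2, with adjusted p-values of 0.852 and 0.923 in limma. DESeq2, which gave an adjusted p for 8 of the 10, called Ccl2 and Ccl20 (Benjamini-Hochberg adjusted p 0.0481 and 1.03e-05), whereas edgeR's quasi-likelihood test called the same number as limma, 8. Among the upstream genes the call of Il6st held in each of 12 alternatives. That of Il1r1 was lost on leaving out control 1 (limma, Benjamini-Hochberg adjusted p 0.0907), without DcpS shRNA 1 (0.0542) and in DESeq2, that of Stat3 without control 2 (0.104) and in DESeq2, and that of Adam10 without control 1 (0.238), without control 2 (0.284) and in DESeq2.

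**Figure D5:**
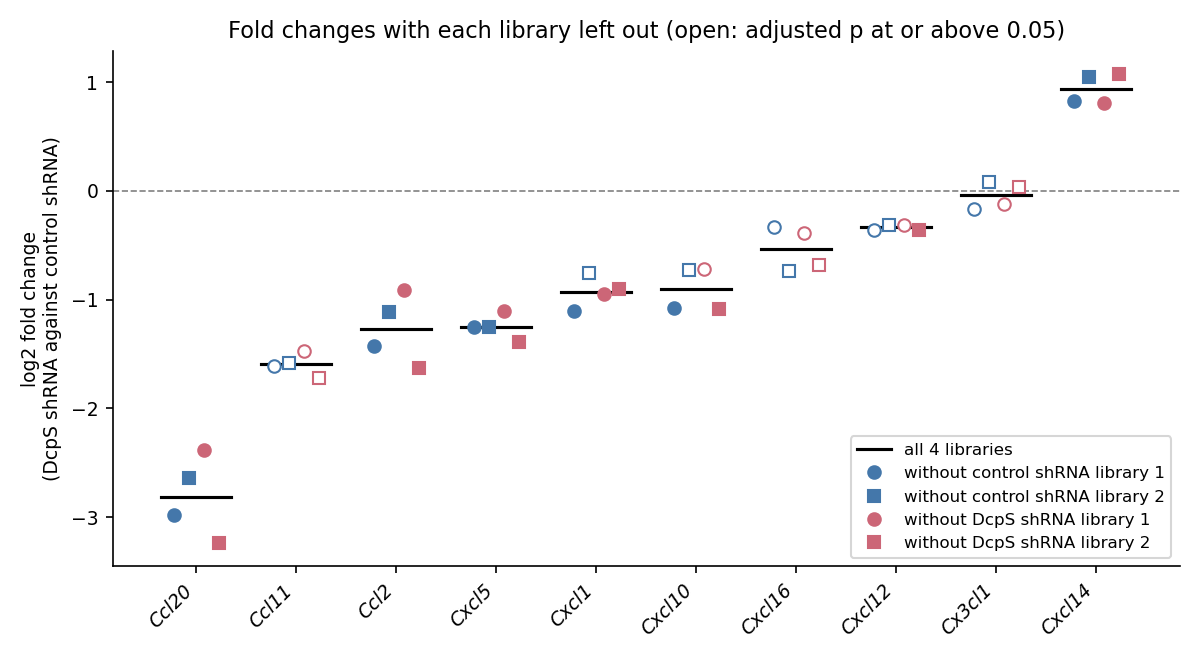
Log2 fold change (vertical axis, DcpS shRNA against control shRNA) of each chemokine with all 4 libraries (black bars) and with each library left out (points, open where the adjusted p is at or above 0.05). Ccl20, Ccl2, Cxcl5 and Cxcl14 keep filled points throughout, and Ccl11 has none.

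The genes whose profiles over the 4 libraries lay closest were sought for the 3 members with the most reads, among genes tested whose mean reached 5 CPM. For Cxcl12 these were Atmin, Drp2 and Cdk14 (Euclidean distance of centred log2 values 0.019, 0.026 and 0.028), and 972 of 12288 genes lay within 0.2. For Cx3cl1 they were Ptch1, Smyd2 and Rnf24 (0.022, 0.028 and 0.033), with 2331 genes within 0.2. For Cxcl14 they were Plxnd1, Ccn3 and Fndc5 (0.283, 0.287 and 0.290), with 0 genes within 0.2. With 4 libraries such likeness is common for profiles that differ little.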

How the data were processed

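The deposited table gives, per gene symbol and library, a signal that is a gene count divided by a size factor: 100% of values in each library were whole multiples of the column's smallest value (tolerance 0.001), which recovers whole reads. The factors equal the median-of-ratios size factors of those reads. HISAT2 2.2.0, SAMtools 1.3.1, Picard, featureCounts, DESeq2 and GRCm38 are named in the submitters' processing notes, without order; the sources used here do not give strand use or the treatment of multimapping reads.

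Since the deposited values are scaled, limma 3.58.1 was run on log2(value + 1), which understates changes of low genes, with intensity trend and robust empirical Bayes, in R 4.3.3, in place of the count model set for raw counts. Genes were kept by edgeR 4.0.16's filterByExpr (minimum count 10), which left 18110 genes, and p-values were two-sided and adjusted by Benjamini-Hochberg over these. With 2 libraries against 2, an exact permutation test cannot give a p below 0.333. The script was run on simulated reads in which every gene had the same spread beyond counting error. That run does not measure error rates in these libraries. Libraries of a group differed beyond sampling noise (chi-square per degree of freedom 2.15 and 4.03). Alternatives were edgeR's quasi-likelihood test and DESeq2 1.42.0 on recovered reads, other pseudocounts, scalings and filters, a replicate block, and leaving out each library.

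The members and lists were chosen with earlier results of these data known. Named genes were all 10 members, pathway genes called at an adjusted p under 0.05, the members' receptors, and the 5 receptors and other chemokines with the highest mean. Pathway and marker genes named without passing the test were chosen after their values were seen, as were the called marker genes that are named.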

Additional observations from a re-analysis of the deposited data

How the results depend on the processing

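Of 10 chemokines, 8 were called under each other pseudocount, scaling and filter tried, with edgeR and with the replicate block. The number called was 2 with DESeq2 and 4 to 7 when 1 library was left out, 4 without control 2 and 5 without DcpS shRNA 1. Cx3cl1, which was not called in any setting, had log2 fold changes from −0.17 to 0.085 with 1 library left out, above 0 without control 2 and, at 0.04, without DcpS shRNA 2; the cause was not tested. Over all genes the count of 1048 became 415 with DESeq2, 1626 with the replicate block and 594 to 1439 with 1 library left out. Of the pathway genes outside the 10, 4 were called, against 7 without a filter, 1 with DESeq2, 8 with the replicate block and 3 to 7 with 1 library left out, 7 without DcpS shRNA 2; the cause was not tested. The 4 pathway genes called, all lower, were among 58 tested. Of all 18110 genes tested, 5.79% were called and 3.65% were lower, and a difference from these shares was not tested. The 7 without a filter were among 89 and the 1 with DESeq2 among 43, so these counts are not directly comparable. Same-numbered libraries did not deviate together (correlation across genes 0.043). With so few libraries this cannot show whether same-numbered libraries shared a preparation, and the labels do not say. Fitted directions of the other 9 chemokines were the same in every alternative run. Depth limits Ccl11 most, with 5 reads in each DcpS shRNA library.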
